A study of Mus musculus with 6 samples.

Results

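The replication-dependent histone genes of the mouse lie in 4 clusters, named Hist1 on chromosome 13, Hist2 on chromosome 3, Hist3 on chromosome 11 and Hist4 on chromosome 6. Members were the genes of the deposited table whose symbol starts with Hist and a digit and that held at least 1 read in 3 or more of the 6 libraries. Of 25965 listed genes, 66 met this rule, out of 68 with such a symbol. They comprised 53 Hist1, 10 Hist2, 2 Hist3 genes and 1 Hist4 gene, or 6 genes for the linker histone H1, 18 for H2A, 17 for H2B, 12 for H3 and 13 for H4. One of the Hist1 genes, Hist1h2al, lies away from the other 52 and is annotated as a pseudogene.

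The messenger RNA of whole lung was sequenced in 6 mice. All 6 were chimeras labelled ZBTB46 DTR, in which the receptor for diphtheria toxin goes with the gene Zbtb46, and all 6 breathed 10% oxygen for 7 days. The 3 toxin mice (DT) received diphtheria toxin at 40 ng per g body weight 1 day ahead of hypoxia, then 8 ng per g at intervals of 3 days, making 3 doses, and the 3 control mice received the vehicle, phosphate-buffered saline (PBS). The study asked which lung processes accompany protection from hypoxic pulmonary hypertension when classical dendritic cells are removed. Zbtb46 is a transcription factor of classical dendritic cells that is also known in endothelial cells and in red cell precursors. The sources used here do not say how the chimeras were made, nor the age and sex of the mice. Toxin was not tried in mice lacking its receptor, so loss of the receptor-bearing cells and an effect of the toxin itself cannot be told apart.

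Core histones H2A, H2B, H3 and H4 form the nucleosome around which DNA is wound, and linker histone H1 binds the DNA between nucleosomes. Genes of the clusters are transcribed mainly during S phase, when new DNA needs new histones. Their usual messenger RNA carries no poly(A) tail and ends just after a stem-loop that the protein SLBP binds. Some cluster genes also give polyadenylated transcripts that run past the stem-loop, which are known from cells that have left the cycle. The libraries were made with an mRNA-Seq kit that selects poly(A) RNA, so the reads measure histone transcripts that such a selection retains, and not the whole histone message.

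The stem-loop is shown here because it is the feature that the family shares and that sets its transcripts apart from other messenger RNA. A search 3′ of the stop codon for a 6-base stem that starts with GG, ends with CC and closes a 4-base loop found it in 44 of the 66 members, beginning 21 to 58 bases after the stop. The search also required T as loop base 2 and a T to A pair next to the loop, so these letters are shared by design. In 15 members without a match the annotation ends within 40 bases of the stop or, for the pseudogene Hist1h2al, gives no coding sequence. The 6 forms found follow, with the stem in capitals, the loop in lower case and each form 5′ to 3′ on the strand of its gene (GENCODE M21, mm10).
Form of 26 members with H1, H2A, H2B or H3 type: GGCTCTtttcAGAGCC
Form of 7 H4 members: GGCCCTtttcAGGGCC
Form of 6 H1, H2B or H3 members: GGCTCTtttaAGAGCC
Form of 2 H4 members: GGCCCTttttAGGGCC
Form of 2 further H4 members: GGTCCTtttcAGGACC
Form of Hist2h2ac: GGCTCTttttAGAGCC
Every H4 member with a match had a form that no other type had. Hist1h2ac (stem-loop at chr13:23683477-23683492, minus strand) and Hist1h3d (chr13:23576244-23576259, plus strand), both higher in toxin mice, carried the same commonest form as Hist1h1c (chr13:23739512-23739527, plus strand) and Hist3h2a (chr11:58955172-58955187, plus strand), whose levels were nearly equal in both groups.

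Promoters of 3 members that rose and of the flat, abundant Hist1h1c are shown to set side by side the start regions of members that behaved differently. Each sequence runs from 250 bases before to 50 bases after the RefSeq start (GRCm38.p6, the build of mm10), 5′ to 3′ on the strand of the gene. Capitals mark the TATA motif TATAAA, the CCAAT motif and the octamer ATTTGCAT on either strand, so that TTTATA for the first, ATTGG for the second and ATGCAAAT for the last are matches on the other strand. The 3 motifs were searched on both strands, and none of them holds another.
Hist1h2ac, chr13:23683910-23684209, minus strand: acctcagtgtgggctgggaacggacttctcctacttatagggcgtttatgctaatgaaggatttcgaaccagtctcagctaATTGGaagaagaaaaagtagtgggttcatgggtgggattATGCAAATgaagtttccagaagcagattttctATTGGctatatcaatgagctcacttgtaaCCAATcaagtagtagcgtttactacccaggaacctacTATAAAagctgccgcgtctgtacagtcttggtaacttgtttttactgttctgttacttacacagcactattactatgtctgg
Hist1h2bn, chr13:21753826-21754125, plus strand: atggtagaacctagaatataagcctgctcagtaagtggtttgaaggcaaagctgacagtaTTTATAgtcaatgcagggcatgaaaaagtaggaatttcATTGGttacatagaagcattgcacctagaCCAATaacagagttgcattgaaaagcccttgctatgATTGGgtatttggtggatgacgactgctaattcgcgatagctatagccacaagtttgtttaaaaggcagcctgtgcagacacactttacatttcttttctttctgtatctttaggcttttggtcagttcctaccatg
Hist1h3i, chr13:21783348-21783647, minus strand: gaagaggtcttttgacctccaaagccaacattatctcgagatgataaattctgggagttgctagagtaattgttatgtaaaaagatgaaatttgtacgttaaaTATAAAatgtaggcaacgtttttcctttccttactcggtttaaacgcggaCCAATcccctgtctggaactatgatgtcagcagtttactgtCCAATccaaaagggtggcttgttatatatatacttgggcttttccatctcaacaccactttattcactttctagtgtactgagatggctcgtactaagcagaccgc
Hist1h1c, chr13:23738557-23738856, plus strand: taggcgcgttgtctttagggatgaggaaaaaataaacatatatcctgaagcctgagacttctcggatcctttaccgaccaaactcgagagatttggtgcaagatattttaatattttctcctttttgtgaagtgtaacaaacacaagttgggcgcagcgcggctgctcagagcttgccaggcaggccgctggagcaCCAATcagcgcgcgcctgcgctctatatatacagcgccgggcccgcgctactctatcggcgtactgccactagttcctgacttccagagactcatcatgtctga
The Hist1h2ac window holds TATAAA at -32 and the octamer at -130 from the start, together with 3 copies of CCAAT. The Hist1h2bn window holds TATAAA at -190, on the other strand, and 3 copies of CCAAT. The Hist1h3i window holds TATAAA at -147 and 2 copies of CCAAT, and neither of these 2 windows holds the octamer. The Hist1h1c window holds 1 copy of CCAAT, at -54, and neither of the other motifs in these exact letters. Other members that stayed near level do hold them: Hist1h2bg has TATAAA at -43 and the octamer at -59, and Hist3h2a has the octamer at -119. How the motifs go with the change was not tested. Related runs, such as tatatata shortly before the start in the Hist1h1c and Hist1h3i windows, were not marked. Among the 60 members with a RefSeq promoter, 55.0% held TATAAA, 85.0% CCAAT and 18.3% the octamer, against 13.6%, 37.4% and 1.74% of all 32851 promoters of the same length. CCAAT stood in every H1, H2A, H2B and H3 promoter found and in 3 of 12 H4 promoters. The octamer stood in 6 of 17 H2A and 5 of 15 H2B promoters and in no other type. These counts take 1 promoter per member. Windows of neighbouring genes on opposite strands can overlap, so the same site may count for both genes. The TATAAA at -190 of Hist1h2bn is the one at +22 of Hist1h2ak. Hist1h2be, an H2B gene counted as lacking the octamer, has another promoter that was left out and holds it at -67. These matches describe the letters in the windows and are not evidence of binding.

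Sequencing depth was 16766386 to 19084657 reads per library, and 3 reads, the limit that a count of 0 allows, correspond to 0.157 to 0.179 reads-per-million units (RPM), for counting error only. Markers of lung identity were present, with summed levels of 554 to 581 RPM in PBS mice and 565 to 632 in DT mice. By their mean log2 level, classical dendritic cell markers stood at 2.98 in PBS mouse 1, close to the 2.39 to 3.07 of DT mice and below the 3.99 and 4.09 of the other PBS mice. Results that turn on 1 mouse are given below with and without it.

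Histone reads were higher in toxin mice in Hist1 and near level in the other clusters. The 53 Hist1 members together had 135, 128 and 130 RPM in the PBS mice and 187, 203 and 200 RPM in the DT mice. The groups did not overlap, and the means were 131 ± 3.32 and 197 ± 8.62 RPM (SD, n = 3 each), a ratio of 1.50. Leaving out any 1 mouse kept this ratio between 1.48 and 1.54. The 10 Hist2 members had 52.8 ± 3.27 RPM in PBS and 49.6 ± 3.71 RPM in DT, with overlapping groups. The Hist3 pair had 41.9 ± 3.08 and 42.5 ± 0.28 RPM, and Hist4h4 had 0.52 ± 0.128 and 0.54 ± 0.0996 RPM. Over all 66 members the sum went from 226 ± 8.81 to 289 ± 12 RPM, a gain of 63.2 RPM, against a gain of 65.7 RPM for Hist1 alone. In whole-lung RNA, more cells that express these genes and more RNA per cell cannot be told apart. Neither the sums nor the difference between clusters was tested, since the members were chosen with results of these data known.

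**Figure D1:**
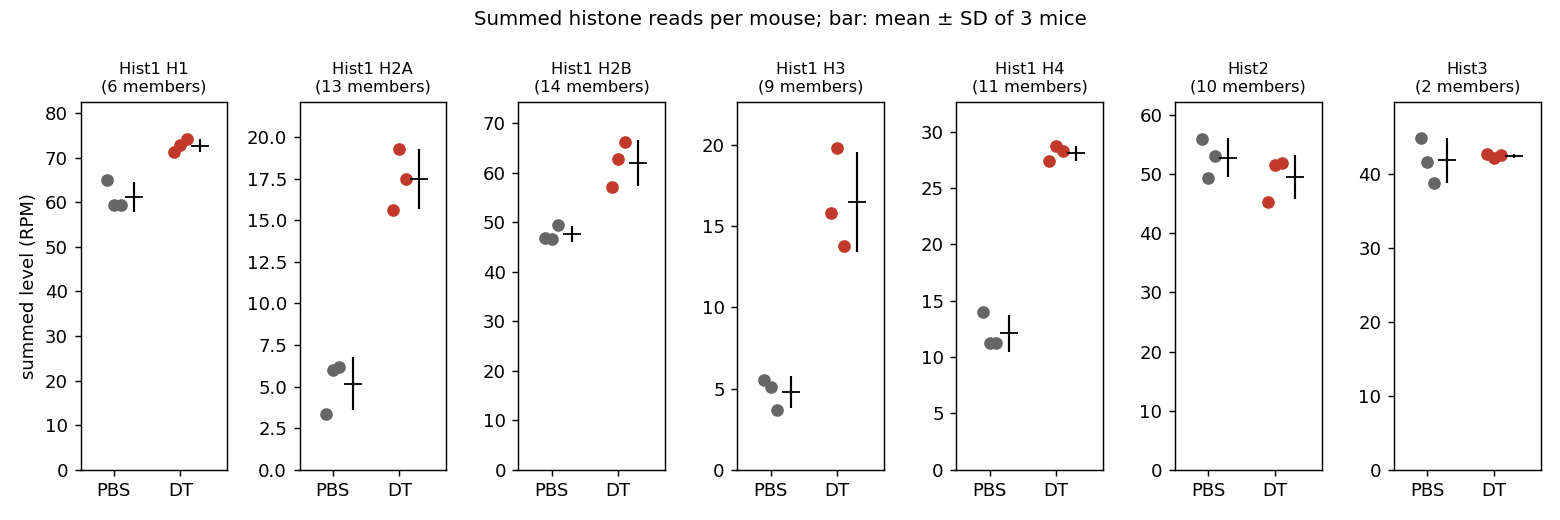
Summed level (RPM, each axis from 0) of the Hist1 members by histone type and of the Hist2 and Hist3 members, with 1 point per mouse (3 PBS, 3 DT) and the mean ± SD beside them. PBS and DT mice stay apart for each Hist1 type, with H3 at 4.78 in PBS and 16.5 in DT, and overlap for Hist2 and Hist3.

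Every histone type of Hist1 had a higher sum in each DT mouse than in any PBS mouse, but by different ratios. H3 genes of Hist1 went from 4.78 ± 0.984 to 16.5 ± 3.08 RPM (ratio 3.45) and H2A genes from 5.18 ± 1.6 to 17.5 ± 1.82 RPM (ratio 3.37). H4 genes went from 12.1 ± 1.64 to 28.1 ± 0.666 RPM, a ratio of 2.31. H2B genes went from 47.6 ± 1.66 to 61.9 ± 4.61 RPM (1.30) and H1 genes from 61.2 ± 3.29 to 72.7 ± 1.5 RPM (1.19). The gains in RPM were more alike than the ratios, at 11.5 for H1, 12.3 for H2A, 14.3 for H2B, 11.7 for H3 and 16.0 for H4. The small H1 ratio rests on 1 abundant gene, Hist1h1c, without which it was 2.56. The difference in ratio between types was not tested.

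Counted gene by gene over all 66 members, 57 had a higher mean in DT, beside 50.4% of all genes with a read in 3 or more libraries. In 37 of the 66, each DT mouse lay above each PBS mouse, where the same holds for 7.61% of those genes. All 37 were Hist1 genes, namely 3 of 6 H1, 11 of 13 H2A, 6 of 14 H2B, 7 of 9 H3 and 10 of 11 H4. In none of the 66 did all DT mice lie below all PBS mice, where the background is 6.53%.

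Enough reads for a test were held by 45 members, those that reached 0.538 RPM (10 reads at the median depth) in 3 or more libraries and 15 reads in all. With limma on log2(RPM + 1) and Benjamini-Hochberg adjustment over all 16708 genes tested, 4 of the 45 rose and 0 fell at an adjusted p under 0.05, while 25 were higher and 0 lower at an unadjusted p under 0.05. The background was 0.275% of all genes tested called higher and 0.00599% called lower. The median log2 fold change of the 45 was 0.55 against 0.00 over all genes, and 41 were positive. Of the 45, 9 reached the filter in no PBS library and so had to be higher in DT. They were Hist1h1b, Hist1h3i, Hist1h2bp, Hist1h4n, Hist1h2ah, Hist1h2ae, Hist1h2ab, Hist1h3b and Hist1h4a. In the 23 members that reached the filter in all 6 libraries, 3 rose and 19 were positive. Without DT mouse 1 the count of risen members was 0, without DT mouse 3 it was 1, and without PBS mouse 1 it was 5.

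**Figure D2:**
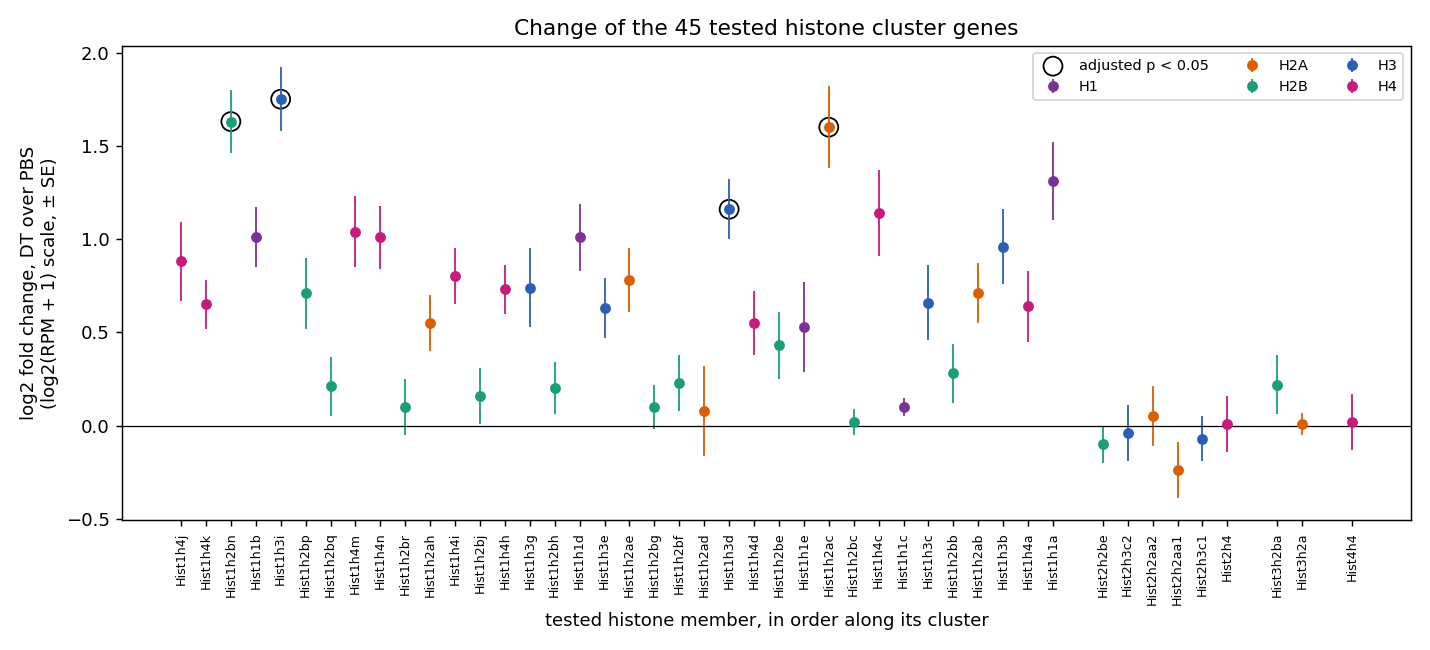
Log2 fold change of DT over PBS (log2(RPM + 1) scale, ± SE, 3 mice per group) of the 45 tested members, in order along each cluster and coloured by histone type, with rings around the 4 past an adjusted p of 0.05. The 36 Hist1 genes lie between 0.02 and 1.75, and the Hist2, Hist3 and Hist4 genes between -0.24 and 0.22.

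All 4 members that rose are core histone genes of Hist1. Hist1h3i, which encodes an H3 (RefSeq H3c11, ENSMUSG00000075032, mm10 chr13:21782915-21783397, 1 exon), held 2, 0 and 5 reads in the PBS mice and 39, 64 and 48 in the DT mice. In these poly(A)-selected libraries its reads were scarce in each PBS mouse and clearly more numerous in each DT mouse. Its level rose from 0.124 ± 0.132 to 2.78 ± 0.556 RPM (log2 fold change 1.75 ± 0.17, limma adjusted p = 0.00869). It is one of the 9 members that passed the filter through the DT mice alone, and the call was lost without DT mouse 1 (adjusted p = 0.0849 with limma).

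Hist1h2bn, an H2B gene (H2bc15, ENSMUSG00000095217, chr13:21754123-21754503, 1 exon), held 31, 20 and 35 reads in PBS and 99, 130 and 142 in DT. The lowest DT mouse lay well above the highest PBS mouse. The level rose from 1.54 ± 0.414 to 6.84 ± 0.911 RPM (1.63 ± 0.17, limma adjusted p = 0.0102), a call lost without DT mouse 1 (0.0876) or DT mouse 3 (0.0709). Only 27.7% of the 75-base windows of Hist1h2bn and 21.7% of those of Hist1h3i occur in no other annotated gene, so that reads of near-identical copies may be divided among genes by the counting.

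Hist1h2ac, an H2A gene (H2ac6, ENSMUSG00000069270, chr13:23681467-23683948, 1 exon), held 27, 57 and 54 reads in PBS and 124, 204 and 180 in DT. The groups did not overlap, and PBS mouse 1 and DT mouse 1 were the lowest of their groups. The level rose from 2.46 ± 0.836 to 9.34 ± 1.76 RPM (1.60 ± 0.22, limma adjusted p = 0.031), a call lost without DT mouse 1 (0.14) or DT mouse 3 (0.139). Hist1h3d, an H3 gene (H3c4, ENSMUSG00000062808, chr13:23575763-23577011, 1 exon), held 56, 58 and 41 reads in PBS and 123, 161 and 118 in DT. Here too the groups did not overlap. The level rose from 2.78 ± 0.549 to 7.43 ± 1.07 RPM (1.16 ± 0.16, limma adjusted p = 0.0378). This last call was lost without any 1 of 5 mice, with limma adjusted p from 0.0526 to 0.223, and held without PBS mouse 1. Under 3 other scalings, with no filter on low values, with the deposited log2 values and with limma-voom, neither Hist1h2ac nor Hist1h3d passed (limma adjusted p from 0.0518 to 0.103). The windows of these genes are mostly unique, at 88.9% for Hist1h2ac and 77.9% for Hist1h3d. Over Hist1, the median log2 fold change was 0.72 in 22 tested members with at least 50% unique windows and 0.64 in 14 with fewer. The sets differed more in summed RPM, with a ratio of 1.38 over the 29 Hist1 members with at least 50% and 3.04 over the 24 with fewer. Each DT mouse lay above each PBS mouse in 17 of the 29 and in 20 of the 24, beside 7.61% of all genes with a read in 3 or more libraries. The difference between the sets was not tested.

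**Figure D3:**
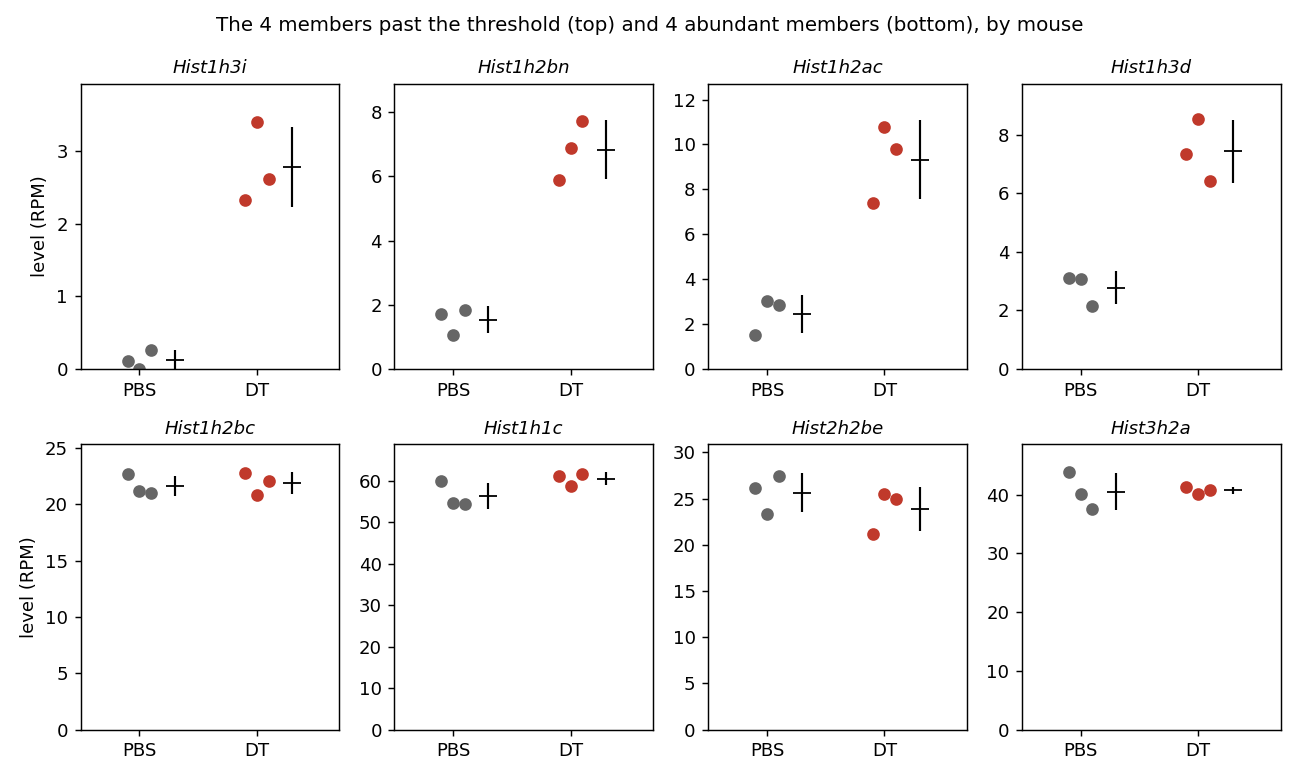
Level (RPM, each axis from 0) in each of 3 PBS and 3 DT mice, with mean ± SD, of the 4 members past the threshold (top) and of 4 abundant members (bottom). The top genes separate the groups, for example Hist1h2bn at 1.54 and 6.84 RPM on average, and the bottom genes overlap.

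Several other Hist1 genes had large fold changes that did not pass the test over all genes. Hist1h1a, a linker histone gene, held 13, 3 and 2 reads in PBS and 35, 52 and 35 in DT (1.31 ± 0.21, limma adjusted p = 0.062). Hist1h4c, an H4 gene, held 11, 1 and 3 reads in PBS and 42, 22 and 32 in DT (1.14 ± 0.23, adjusted p = 0.161 with limma). In both genes the groups did not overlap, and PBS mouse 1 was the highest of the PBS mice. Hist1h1a passed without PBS mouse 1 (limma adjusted p = 0.0222). The linker genes Hist1h1b and Hist1h1d had the same log2 fold change on the log2(RPM + 1) scale (1.01 ± 0.16 and 1.01 ± 0.18), but the ratios of their mean RPM were 8.26 and 2.52, since the pseudocount compresses the change of the scarcer Hist1h1b more.

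The 9 tested H4 genes of Hist1 had log2 fold changes from 0.55 to 1.14 on the log2(RPM + 1) scale, all positive and none past the threshold. Hist1h4n and Hist1h4a reached the filter in no PBS library and so had to be higher in DT. Only Hist1h4h, Hist1h4i and Hist1h4k reached it in all 3 PBS libraries, and the rest passed it only with DT libraries counted. The ratios of mean RPM over the 9 genes ranged more widely, from 1.82 for Hist1h4h to 8.29 for Hist1h4n. Hist1h4h, the highest of them in RPM per kb, held 84, 81 and 76 reads in PBS and 119, 162 and 145 in DT (0.73 ± 0.13, limma adjusted p = 0.0862). Hist1h4i held 76, 57 and 62 reads in PBS and 117, 114 and 136 in DT (0.80 ± 0.15, adjusted p = 0.114 with limma). In both, every DT mouse was above every PBS mouse. Hist1h4m and Hist1h4n have identical coding sequences, so their values (1.04 ± 0.19 and 1.01 ± 0.17) may not be separate.

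The 6 tested H3 genes of Hist1 lay between 0.63 and 1.75, all with groups that did not overlap. Among them only Hist1h3d reached the filter in all 3 PBS libraries, and the others passed it only with DT libraries counted. Of the untested H3 genes of Hist1, Hist1h3h had groups that did not overlap, while those of Hist1h3a and Hist1h3f overlapped. Below the 2 that rose came Hist1h3b, with 1, 0 and 3 reads in PBS and 22, 27 and 11 in DT (0.96 ± 0.20, adjusted p = 0.16 with limma). Hist1h3g held 10, 11 and 3 reads in PBS and 15, 37 and 25 in DT (0.74 ± 0.21). The 5 tested H2A genes lay between 0.08 and 1.60, with Hist1h2ae at 3, 8 and 6 reads in PBS and 15, 28 and 25 in DT (0.78 ± 0.17). Hist1h2ad was the exception among them, with 5, 11 and 21 reads in PBS and 15, 19 and 6 in DT, overlapping in full.

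The 11 tested H2B genes of Hist1 lay between 0.02 and 1.63, with a median of 0.21. Hist1h2bp held 6, 2 and 4 reads in PBS and 16, 27 and 12 in DT (0.71 ± 0.19, limma adjusted p = 0.288), without overlap. Hist1h2be, far more abundant, held 209, 262 and 309 reads in PBS and 242, 393 and 414 in DT (0.43 ± 0.18, limma adjusted p = 0.53), with DT mouse 1 inside the PBS range. Hist1h2bg held 91, 110 and 102 reads in PBS and 99, 107 and 110 in DT (0.10 ± 0.12), and in RPM DT mouse 2 lay inside the PBS range.

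The most abundant members were close to flat. Hist1h1c, a linker histone gene (H1f2, ENSMUSG00000036181, chr13:23738807-23740366), had the highest level per length, 36.2 RPM per kb in PBS and 38.8 in DT. It held 1082, 1027 and 1041 reads in PBS and 1026, 1105 and 1132 in DT (log2 fold change 0.10 ± 0.05, limma adjusted p = 0.64). Hist1h2bc, an H2B gene, followed at 29.4 and 29.8 RPM per kb, with 409, 398 and 401 reads in PBS and 383, 391 and 407 in DT (0.02 ± 0.07). The groups overlapped in both.

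Outside Hist1 the abundant members were equally level. Hist3h2a, an H2A gene, held 789, 752 and 718 reads in PBS and 692, 755 and 750 in DT (0.01 ± 0.06, 20.3 RPM per kb in PBS). Hist2h2be, an H2B gene, held 472, 437 and 523 reads in PBS and 356, 481 and 460 in DT (-0.10 ± 0.10). The lowest value of the 45 was that of Hist2h2aa1, an H2A gene (-0.24 ± 0.15, limma adjusted p = 0.704), which shares its coding sequence with Hist2h2aa2 (0.05 ± 0.16). The names of this pair follow the deposited symbols and positions; GENCODE M21 gives their deposited identifiers the opposite names, so by identifier the values would change places, and with no unique window in either gene the counting may not separate them. None of the 6 Hist2, 2 Hist3 and 1 Hist4 genes tested passed the threshold in either direction.

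**Figure D4:**
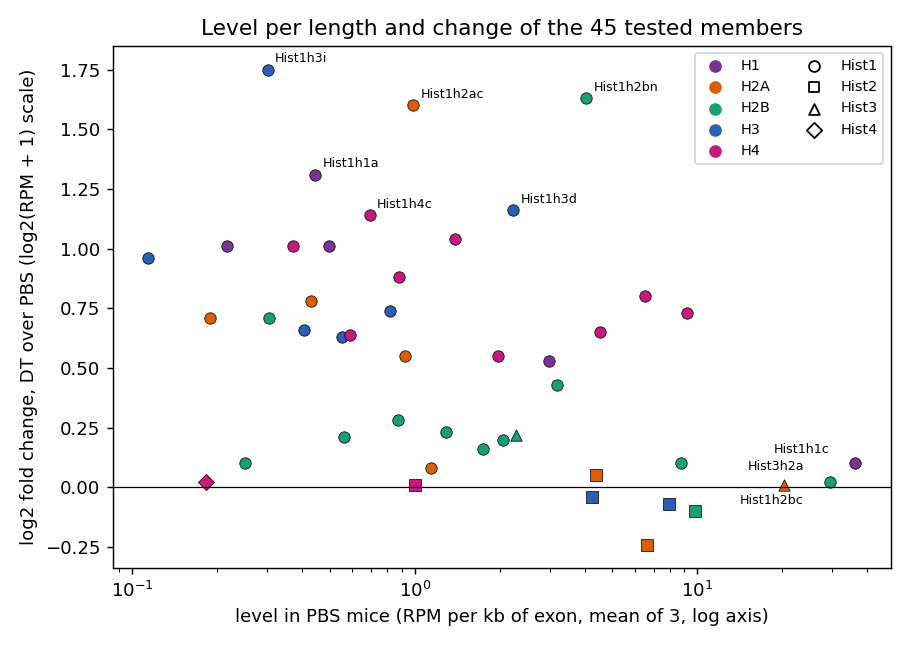
Level in PBS mice (RPM per kb of exon, mean of 3, log axis) against log2 fold change of DT over PBS (log2(RPM + 1) scale) of the 45 tested members, coloured by type and shaped by cluster. The most abundant members, Hist1h1c at 36.2 RPM per kb among them, lie near 0, and the large fold changes lie among members under 10 RPM per kb.

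The log2(RPM + 1) scale understates the change of genes with few reads, and with a pseudocount of 0.25 the median log2 fold change of the 45 was 0.86 in place of 0.55. As 1 pair of similar level, Hist1h2bn stood at 4.04 RPM per kb in PBS and rose, while Hist2h3c2 at 4.23 had a fold change of -0.04 ± 0.15. Their unique windows made up 27.7% and 37.4%, so the counting may affect both levels. How change goes with level was not tested.

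Genes of H2A and H2B often lie head to head around a shared promoter region, which sets members side by side at 1 site. The data held 11 such pairs with 167 to 268 bases between the genes, 10 of them in Hist1. The clearest contrast was between Hist1h2ac and Hist1h2bc, whose 250 bases between them lie within the Hist1h2ac promoter printed above. Hist1h2ac was 3.80 times higher in DT by its mean, and Hist1h2bc 1.01 times. Hist1h2ae and Hist1h2bg, 175 bases apart, had ratios of 4.12 and 1.08. Hist1h2ao and Hist1h2bq, 265 bases apart, had ratios of 4.63 and 1.28. The H2A gene had the larger ratio in 7 of the 11 pairs, with a median of 3.02 for H2A and 1.28 for H2B. Hist1h2bn went the other way, with a ratio of 4.44 beside 3.02 for Hist1h2ak, whose 0, 8 and 2 PBS reads leave that ratio imprecise, as do the 0, 3 and 3 of Hist1h2ao. The pair Hist1h2ao and Hist1h2bq and the pair Hist1h2ap and Hist1h2br have the same coding sequences, gene for gene, so these 2 of the 7 may not be separate. These pairs are a description, and the difference between partners was not tested.

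Members were also set apart by what the annotation gives beyond the stem-loop, since the classical transcript ends there without a tail. In 22 members the annotated transcript runs 100 or more bases past the stem-loop, and these held 68.7% of all member RPM in PBS mice, with a median of 2.01 RPM per kb. In another 22 it runs fewer than 100 bases past it, and the median was 0.473 RPM per kb. Over the Hist1 members of each set, the summed level went from 92.6 ± 1.1 to 128 ± 7.11 RPM in the first and from 9.40 ± 1.02 to 22.1 ± 2.76 RPM in the second. Hist1h2ac has 2010 annotated bases past its stem-loop and Hist1h1c has 840. In 15 members, Hist1h3i and Hist1h2bn among them, the annotation ends within 40 bases of the stop codon or, for Hist1h2al, gives no coding sequence. Their 3′ ends were not examined here, and the 12 of these in Hist1 went from 4.58 ± 0.71 to 18.3 ± 1.75 RPM in sum. The other 7, Hist1h2bc and Hist1h1a among them, have longer ends in which the search found no stem-loop, and the 6 of these in Hist1 went from 24.3 ± 1.7 to 28.7 ± 0.206 RPM. These sums are weighted to the most abundant gene of each set, and the differences between sets were not tested. How the reads lie along the transcripts was not tested.

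The 21 members under the filter held at most 19 reads in any library. Of these, 16 had a higher mean in DT, and in 11 the groups did not overlap, all 11 higher in DT. Over all genes with a read in 3 or more libraries, the shares were 50.4% and 7.61%. The shares among genes with as few reads were not computed. Hist1h2an, an H2A gene, held 1, 0 and 1 reads in PBS and 8, 19 and 9 in DT. Hist1h2ai held 4, 4 and 7 reads in PBS and 13, 10 and 18 in DT. Hist1h3a held 7, 2 and 2 reads in PBS and 15, 18 and 6 in DT, with overlapping groups. Hist1h1t, the linker histone gene of the testis, held 1, 5 and 3 reads in PBS and 3, 0 and 4 in DT, at or near the limit of what this depth can show.

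Genes that lie among the histone genes were compared next. Between the first and last Hist1 member of the cluster, a span of 2048.7 kb, 7 other genes were tested and 1 rose, with a median log2 fold change of -0.03. Hfe, a regulator of iron uptake, held 851, 861 and 910 reads in PBS and 769, 845 and 835 in DT (-0.05 ± 0.05). Abt1 (0.03 ± 0.10) and Zfp322a (-0.07 ± 0.07) were level as well. The gene that rose, Gm11274, lies between Hist1h2bn and Hist1h3i at chr13:21769125-21770476 and held 18, 9 and 22 reads in PBS and 113, 138 and 141 in DT. Its level went from 0.877 ± 0.353 to 7.25 ± 0.47 RPM (2.15 ± 0.17, limma adjusted p = 0.0058). This call too was lost without DT mouse 1.

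In Hist2, 4 other genes were tested and none passed. In Hist3, Trim17, which overlaps Hist3h2a on the same strand, rose from 28.0 ± 1.41 to 46.7 ± 1.39 RPM (0.72 ± 0.06, limma adjusted p = 0.0058) while Hist3h2a stayed level. The Trim17 call was lost without DT mouse 1. Of all members, 8 overlap another listed gene, 7 of them outside Hist1, and the sources used here do not say how reads of such overlaps were assigned.

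Among genes whose products make, carry or replace cluster histones, none passed the test. Of 27 tested genes of histone mRNA synthesis and processing, 0 passed with limma in either direction (0 higher and 0 lower at an unadjusted p under 0.05), with a median log2 fold change of 0.01. Slbp, the stem-loop binding protein, stood at 28.2, 21.5 and 22.5 RPM in PBS and 25.1, 22.5 and 22.0 in DT (-0.04 ± 0.11), and Npat, the activator of histone transcription, was at 0.10 ± 0.05. Of 25 histone chaperones, 0 passed with limma (1 higher and 0 lower unadjusted; median 0.02). Of 11 tested genes listed as histone variants outside the clusters, 0 passed with limma (0 and 0 unadjusted, median -0.01). Among them, H2afx was at 0.04 ± 0.08, H2afz at -0.04 ± 0.09, H3f3b at 0.05 ± 0.06 and H1f0 at 0.02 ± 0.05.

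Cell cycle genes were compared because cluster histones are made in S phase. Of 38 S phase genes, 0 passed with limma (1 higher and 0 lower at an unadjusted p under 0.05), with a median of 0.03. Pcna, the sliding clamp of DNA synthesis, stood at 28.1, 25.1 and 25.7 RPM in PBS and 28.6, 26.8 and 25.9 in DT (0.04 ± 0.07). Of 24 genes of G2 and mitosis, 0 passed with limma (0 and 0 unadjusted), with a median of 0.12 and 22 positive. Their summed level was 488 to 735 RPM in PBS and 657 to 862 in DT, with overlapping groups.

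**Figure D5:**
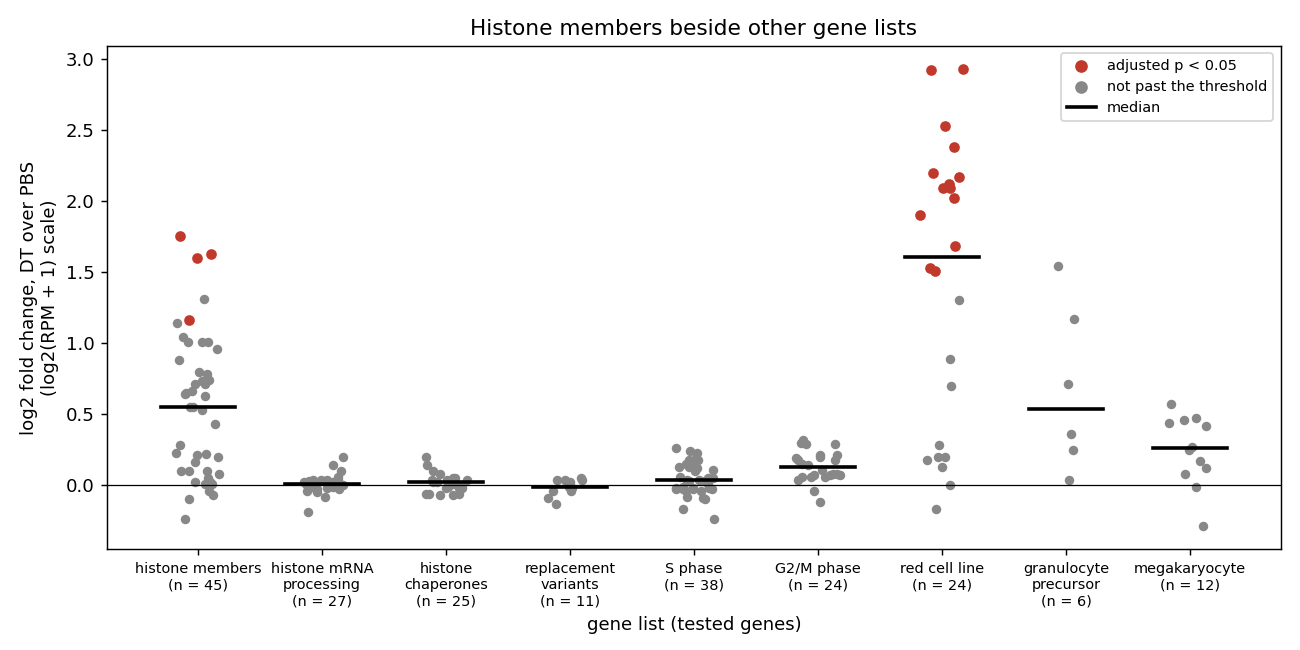
Log2 fold change of DT over PBS (log2(RPM + 1) scale) of each tested gene of the histone members and of 8 other lists, with the median as a bar and genes past an adjusted p of 0.05 in red. The histone members (median 0.55) spread upward, the lists of histone processing, chaperones, variants and S phase stay near 0, and the red cell list (median 1.61) lies highest.

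Markers of red cell precursors were higher in DT mice, as the Hist1 members were. Of 24 tested genes of the red cell line, 14 rose and 0 fell (limma, Benjamini-Hochberg), with a median of 1.61, and 22 were positive. All 14 calls were lost without DT mouse 1, where no gene of any kind passed. This list was drawn up with results of these data known and is not independent of them. Its summed level was 306 to 354 RPM in PBS and 519 to 633 in DT, without overlap, and no listed gene was at 0 in all 6 mice. Klf1, a master transcription factor of red cell precursors, stood at 3.05, 0.533 and 0.734 RPM in PBS and 18.8, 13.5 and 15.6 in DT. The part of these cells in the histone result was not tested.

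None of the markers of the other lineages passed the test. Of 6 tested granulocyte precursor genes, 0 passed with limma (3 higher and 0 lower at an unadjusted p under 0.05), with a median of 0.54 and summed levels of 49.0 to 68.1 RPM in PBS and 58.0 to 100 in DT, over the 11 listed. Of 12 megakaryocyte genes, 0 passed with limma (1 and 0 unadjusted), with a median of 0.26 and sums of 310 to 318 RPM in PBS and 337 to 377 in DT. Of 8 B and plasma cell genes, 0 passed with limma (0 higher and 2 lower unadjusted), with a median of -0.26. Of 14 classical dendritic cell genes, 0 passed with limma (0 higher and 9 lower unadjusted), all 14 were negative and the median was -0.85. Of 9 lung identity genes, 0 passed with limma (0 and 0 unadjusted), with a median of 0.05. The part of these cell types in the histone result was not tested.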

How the data were processed

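The values the authors deposited are log2 of RPM, reads scaled to the library's size, for each gene. The submitters' processing notes name FastQC, Trimmomatic and build mm10; which program aligned and counted the reads, and whether it used strand, is not given in the sources used here. On the linear scale the values are whole multiples of 1 read (tolerance 0.1%), with 0.9 of a read standing for no read, which gave reads and depth per library.

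Groups came from the sample titles. The labels do not say more of the mice, so p-values measure the spread between these 6 samples, which may be technical. Since the deposited unit is log2 and not counts, limma 3.58.1 (R 4.3.3) was used with its trend option on log2(RPM + 1), a 2-sided test of DT against PBS over all 16708 genes that passed the filter, Benjamini-Hochberg adjustment and a threshold of 0.05; the code was tested on simulated data. Members overlapping other listed genes were found from the deposited positions, and those nearly identical to other genes with GENCODE M21. Promoters were found with RefSeq GRCm38.p6, which matched all 66 members by symbol and position and gave promoters for 60. Plots were drawn with matplotlib 3.10.9.

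The members and gene lists were chosen with earlier results of these data known. Named genes were the members past the threshold, the 25 with the largest fold changes, the 2 most abundant per cluster and type, overlapping members, up to 5 below the filter, fixed genes and up to 4 per list, and neighbours past the threshold; not all are printed, and Hist1h1t, Hist1h2ad, Hfe, Abt1 and Zfp322a were added after their values were seen. Alternatives covered scaling, filter, pseudocount, limma-voom, the variance prior, the replicate block, the members counted and leaving out each mouse.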

Additional observations from a re-analysis of the deposited data

How the results depend on the processing

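The count of 4 histone members higher in DT was 2 with median-of-ratios, trimmed mean of M-values or upper-quartile scaling, with the deposited log2 values and with limma-voom, and 2 of the 27 tested members with at least 50% unique windows, an alternative added after the data were seen. It was 5 with no filter on low values and 0 to 5 when 1 mouse was left out, and the count of members lower in DT was 0 in each of these. All genes past the threshold numbered 47, or 0 to 141 with 1 mouse left out, and 0 without DT mouse 1. The labels do not say whether equal replicate numbers pair the mice. Correlations of deviations were 0.08, 0.27 and -0.10 for equal numbers and -0.26 to 0.14 for unequal ones. Deviations from means of 3 mice cannot settle whether the mice were paired. With the numbers as a block 0 members and 8 genes in all passed. The median log2 fold change of 0.55 was 0.41 with no filter, 0.48 with a mean of at least 1 RPM, 0.86 with a pseudocount of 0.25, 0.97 with the deposited values and with limma-voom, 0.64 with unique members, and 0.52 to 0.62 with 1 mouse left out.

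The ratio of summed reads was 1.28 over all members (1.26 to 1.31 with 1 mouse left out) and 1.39 without members that overlap a listed gene. For Hist1 it was 1.50, or 1.83 without its most abundant member and 1.38 with unique members. For Hist3 it was 1.02, or 1.29 without Hist3h2a, which is both overlapping and most abundant. By type over all clusters, leaving out the most abundant member gave 2.56 for H1 (from 1.19), 2.02 for H2A (from 1.23), 1.30 for H2B (from 1.18) and 2.21 for H3 (from 1.45). Leaving out overlapping members gave 3.22 for H2A and 2.27 for H3, and unique members gave 2.69 for H3. With 1 mouse left out the ratios ran 1.48 to 1.54 for Hist1, 0.91 to 0.981 for Hist2, 0.98 to 1.06 for Hist3, 0.91 to 1.15 for Hist4, 1.17 to 1.23 for H1, 1.19 to 1.24 for H2A, 1.14 to 1.23 for H2B, 1.37 to 1.56 for H3 and 2.05 to 2.28 for H4.

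Over all alternatives but the left-out mice, 415 of 433 fold changes of single members kept direction and call, 16 lost the call, 2 gained it and 0 changed sign. With 1 mouse left out, signs changed only in members near 0, with ranges of -0.14 to 0.04 for Hist2h3c1, -0.09 to 0.27 for Hist1h2ad, -0.05 to 0.08 for Hist4h4, -0.13 to 0.04 for Hist2h3c2, -0.05 to 0.16 for Hist2h2aa2, -0.04 to 0.10 for Hist2h4, -0.04 to 0.07 for Hist3h2a and -0.01 to 0.05 for Hist1h2bc. Where counts or medians moved, the cause was not tested. Members with a few reads per library are imprecise at this depth, and 3 mice per group limit what the test can call.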
